A study of Mus musculus with 43 samples.

Results

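The MHC class I presentation genes described here are 10 genes that build and load the class I complex: the heavy chains H2-D1, H2-K1, H2-Q4, H2-Q6, H2-Q7 and H2-T23, the light chain B2m, the peptide transporter subunits Tap1 and Tap2, and the loading factor Tapbp. They were taken by symbol from the 54532 genes of the deposited table, each symbol matched 1 gene, and 10 of 10 passed the filter of at least 0.5 CPM (counts scaled to a common library size) in at least 1 library. RNA came from brain endothelial cells (EC) of mice aged 2 months, sorted as CD31+ cells that lacked CD45 and CD11b, in 43 libraries from 7 inbred strains, for which the labels give no engineered allele and no treatment. The titles do not name the mouse, so cortex and hippocampus libraries may come from the same animal, and p-values measure the spread between libraries. The long-inbred strains were 129S1/SvImJ (n = 9 libraries), A/J (n = 5), C57BL/6J (n = 6), DBA/2J (n = 5) and NOD/ShiLtJ (n = 6), and the recently wild-derived strains were CAST/EiJ (n = 6) and WSB/EiJ (n = 6). Of these libraries 16 came from female and 27 from male mice, 21 from cortex and 22 from hippocampus, and the titles add the word high (29 libraries) or low (14 libraries), which no source used here defines. The sort takes EC of arterioles, capillaries and venules together, and each strain stands for 1 inbred genotype.

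Class I molecules display peptides from inside a cell to CD8+ T cells and to natural killer cells. A heavy chain pairs with B2m, TAP pumps peptides into the endoplasmic reticulum, and tapasin, the product of Tapbp, holds empty complexes at TAP until a peptide binds. H2-D1 and H2-K1 are the classical, highly polymorphic heavy chains of the mouse, whereas the H2-Q and H2-T genes are non-classical or class Ib genes, with H2-T23 encoding Qa-1. Brain EC form the interface at which circulating T cells meet the blood–brain barrier, and class I on EC is part of that contact.

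Library totals ran from 1626534 to 49372356 counts (median 5790701), so the CPM that 3 counts stand for varied widely between libraries. All 15 endothelial markers checked had counts, summing to 9675 to 19282 CPM per library. The 10 microglial markers summed to 0 to 116 CPM (median 9.81), and the 7 class II genes, which mark professional antigen-presenting cells, summed to 0 to 15.03 CPM (median 0.707). Of 8 leukocyte genes, 7 averaged under 1 CPM, and the exception, Ly6c2, reached 42.4 to 126 CPM in CAST/EiJ while 5 of the other strains stayed at or below 15.8 CPM and NOD/ShiLtJ ran from 8.64 to 29.5 CPM. Markers of cells that border vessels were higher: the 8 pericyte markers summed to 1998 to 9605 CPM (median 4390), the 8 astrocyte markers to 1070 to 19506 CPM (median 3295), the 6 neuronal markers to 50.1 to 930 CPM and the 6 oligodendrocyte markers to 11.5 to 329 CPM. The share of reads on 3 rRNA-like genes was 1.59% to 12.1% in female and 12.97% to 29.3% in male libraries. In such bulk libraries, fewer cells with a transcript and less transcript per cell cannot be told apart.

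Of the 10 genes, 9 lie on chromosome 17 of mm10, within 2.12 Mb (33915899 to 36032855), and B2m lies on chromosome 2 (122147686 to 122153083, + strand). From the first to the last start on chromosome 17, the order is Tapbp (33915899 to 33929292, +), H2-K1 (33996017 to 34000347, −), Tap1 (34187553 to 34197225, +), Tap2 (34203527 to 34216321, +), H2-D1 (35262730 to 35267499, +), H2-Q4 (35379617 to 35385290, +), H2-Q6 (35424850 to 35430055, +), H2-Q7 (35439155 to 35443773, +) and H2-T23 (36029773 to 36032855, −). The mm10 build is the C57BL/6J sequence, and reads of every strain were aligned to it. How many reads of an allele that differs from it failed to align was not tested, and it cannot be told apart from a difference in expression in these counts.

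The heavy chain genes are paralogs, so some reads fit more than 1 of them. Of the distinct windows of the read length in the annotated transcripts of a gene, 12.6% in Tapbp, 11% in H2-Q4, 8.53% in H2-Q7, 8.21% in H2-Q6, 2.62% in H2-D1, 2.03% in Tap2, 1.48% in Tap1, 1.20% in H2-T23, 0.0720% in H2-K1 and 0% in B2m also occurred, letter for letter, in a transcript of another gene. Both strands of the other transcripts were searched, although the libraries were stranded. In Tapbp 1 overlapping gene model, Gm19412, accounted for all of the shared windows, and in H2-Q4 1 model, Gm11131, accounted for 10.8%. No gene that shared a window with H2-Q4 was another H2 gene. H2-Q6 and H2-Q7 shared 141 windows with each other. The window below, from coding exon 4 of H2-D1 (GRCm38, chr17:35265885-35266009, + strand), which encodes the immunoglobulin-like domain near the membrane, is shown because it also occurs unchanged in H2-Q1, H2-Q6 and H2-Q7, so that a read of it carries no information on which of the 4 genes it came from.
H2-D1 exon 4: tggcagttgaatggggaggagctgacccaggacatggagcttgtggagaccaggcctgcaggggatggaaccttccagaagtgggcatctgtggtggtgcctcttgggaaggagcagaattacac

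Class I genes are known to respond together to interferon and NF-κB signals, and 3 promoters are shown because their genes stand for the classical heavy chains, the class Ib genes and the common light chain. RefSeq (GRCm38.p6) gave 9 of the 10 genes a promoter, taken as the 250 bases before the start. Capitals mark matches on either strand to the interferon-type letters GAAANNGAA or GAANNGAAA, the κB-type letters GGGGATTCC, or the cAMP-response-type letters TGACGC, and no matches overlapped. H2-K1 lies at chr17:34000348-34000597 (− strand), H2-Q6 at chr17:35424600-35424849 (+ strand) and B2m at chr2:122147437-122147686 (+ strand).
H2-K1: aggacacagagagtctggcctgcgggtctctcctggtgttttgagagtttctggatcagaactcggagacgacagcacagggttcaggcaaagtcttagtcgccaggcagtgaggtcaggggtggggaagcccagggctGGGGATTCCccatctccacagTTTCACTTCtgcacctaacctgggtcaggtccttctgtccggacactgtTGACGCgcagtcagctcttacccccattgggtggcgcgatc
H2-Q6: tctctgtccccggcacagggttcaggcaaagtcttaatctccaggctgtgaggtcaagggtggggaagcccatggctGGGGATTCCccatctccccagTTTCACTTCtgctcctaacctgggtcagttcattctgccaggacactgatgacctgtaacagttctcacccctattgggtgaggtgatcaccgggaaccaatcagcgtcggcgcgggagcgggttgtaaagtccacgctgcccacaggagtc
B2m: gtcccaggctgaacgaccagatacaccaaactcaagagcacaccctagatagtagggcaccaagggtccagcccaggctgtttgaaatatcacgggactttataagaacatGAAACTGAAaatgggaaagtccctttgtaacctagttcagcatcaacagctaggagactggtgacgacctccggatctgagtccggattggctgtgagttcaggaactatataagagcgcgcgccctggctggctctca

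The κB-type letters stood in 4 of the 9 promoters (H2-D1, H2-K1, H2-Q6 and H2-Q7) and in 0.213% of all 32851 promoters. Either form of the interferon-type letters stood in 7 of the 9 (H2-D1, H2-K1, H2-Q4, H2-Q6, H2-Q7, H2-T23 and B2m) and in 12.5% of all promoters: GAAANNGAA in 7.13% and GAANNGAAA in 6.31%. TGACGC stood in H2-D1 and H2-K1 and in 6.12% of all promoters. The letters were chosen from what is known of class I promoters, and paralogs share promoter sequence by descent. These matches are a description of the reference sequence.

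Levels spanned a wide range even among genes of the same complex. Per kilobase of exon, and averaged over the 43 libraries, B2m stood highest at 238 CPM, ahead of H2-D1 at 101, Tapbp at 43.9, H2-K1 at 41.8, H2-Q4 at 24.2, H2-T23 at 16.9, Tap2 at 15.1, Tap1 at 3.35, H2-Q6 at 2.17 and H2-Q7 at 0.695. H2-Q6 had more than 3 counts in 26 of 43 libraries and H2-Q7 in 14, while the other 8 genes had more than 3 counts in at least 37. All values below are CPM per gene, without division by length, unless a per-kilobase value is named. The share of the variation in log2(CPM + 1) between strain means was 64.7% in H2-T23, 63.7% in H2-D1, 55.7% in B2m, 54.1% in H2-Q6 and 41.3% in H2-Q7. It was 38.1% in Tap1, 35.8% in Tapbp, 32.3% in H2-K1, 28.9% in H2-Q4 and 13.01% in Tap2. These shares are not corrected for the number of strains and are above 0 even without a strain difference. In Tap2 the SD within strains (0.76) was no smaller than that over all libraries (0.75). Sex and depth are also unevenly spread over the strains.

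**Figure D1:**
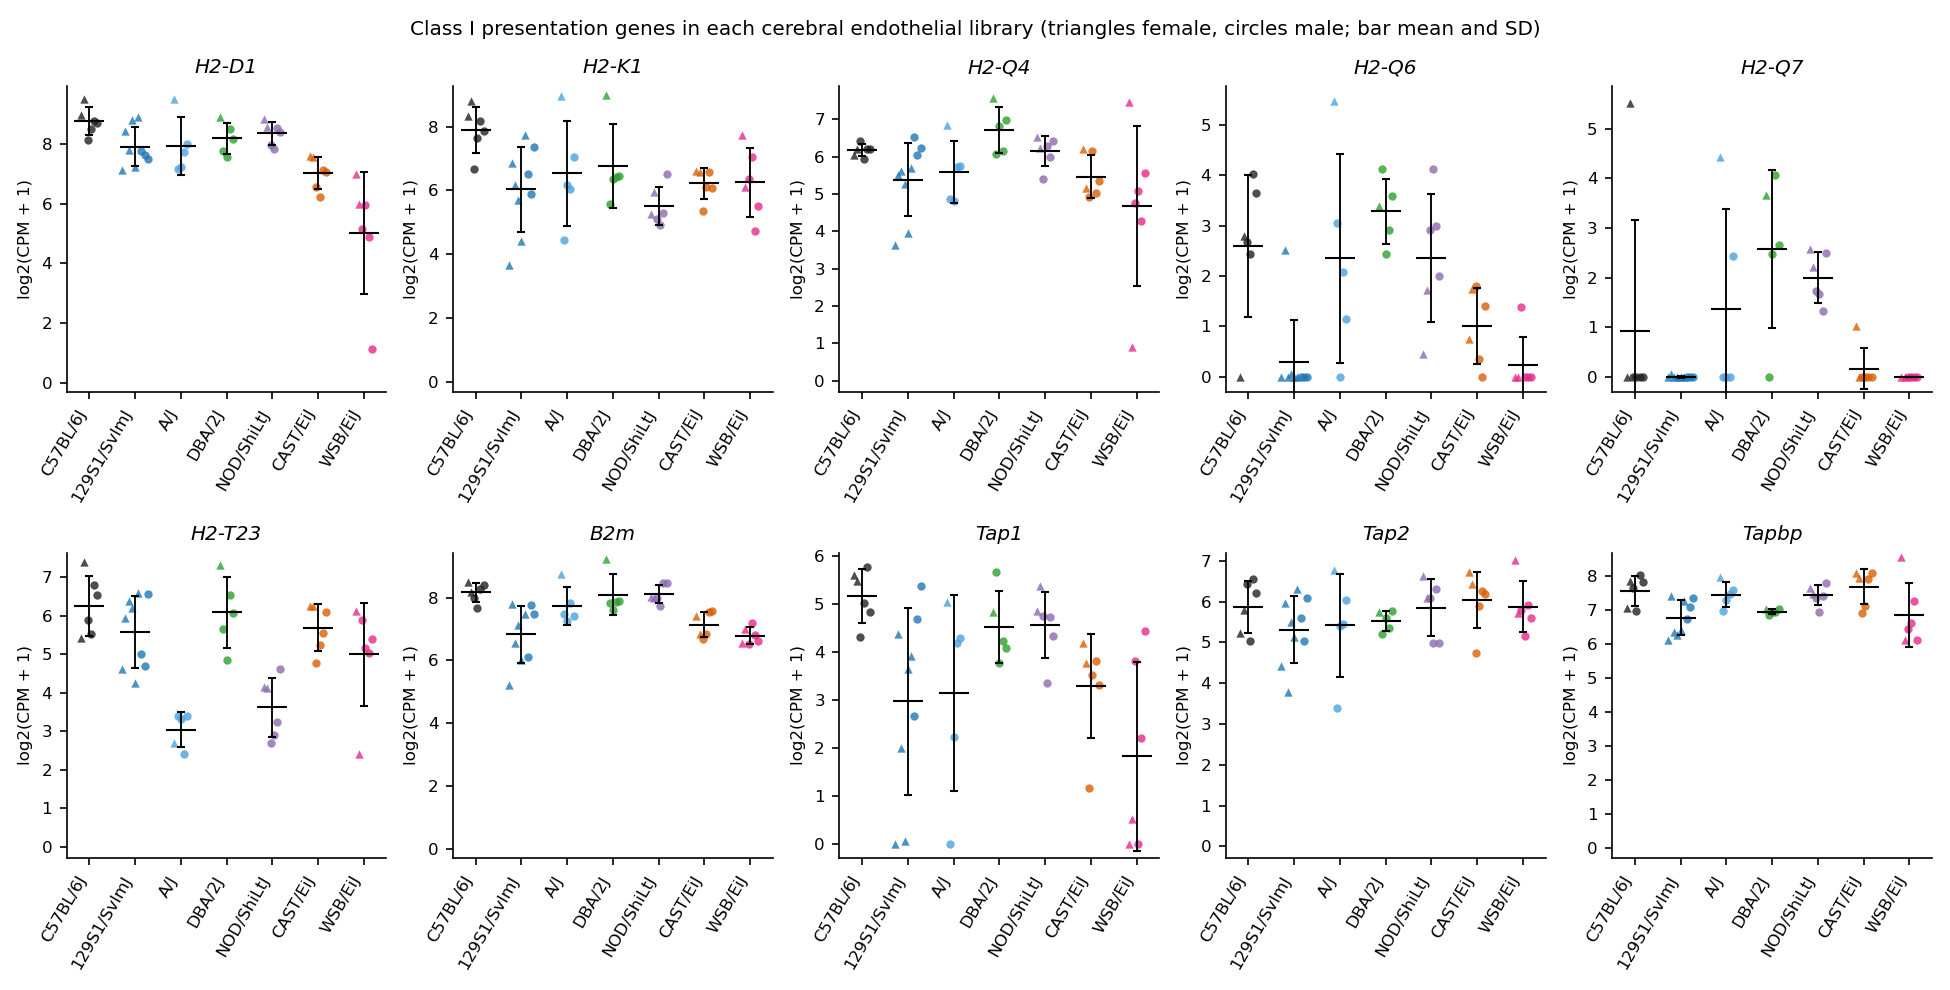
Log2(CPM + 1) of the 10 class I presentation genes (vertical axes) in each library by strain (horizontal axes), with triangles for female and circles for male mice and bars for the mean and SD. H2-D1 sits lowest in WSB/EiJ, H2-T23 lowest in A/J and NOD/ShiLtJ, and H2-Q7 rests on 1 library in C57BL/6J.

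To ask which members differ among strains, an omnibus test over the 7 strains was made. It called 5 of the 10 genes: H2-D1, H2-K1, H2-Q7, H2-T23 and B2m (edgeR quasi-likelihood test, adjusted p = 1.0e-06, 0.0060, 0.0125, 7.2e-07 and 1.3e-04). Of all 29120 genes tested, 2.68% were called, and of the 10649 genes with a mean of at least 5 CPM, 6.02%. The genes not called were H2-Q4 (adjusted p = 0.565), H2-Q6 (0.151), Tap1 (0.602), Tap2 (0.822) and Tapbp (0.242). The calls thus held 4 of the 6 heavy chains and the light chain, and none of Tap1, Tap2 and Tapbp. Whether these groups of genes differ from each other was not tested. From the highest to the lowest strain mean of log2(CPM + 1), Tap1, not called, spanned 3.34 and H2-K1, called, 2.39.

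H2-D1, a classical heavy chain, was lowest in both recently wild-derived strains. In C57BL/6J it ran from 276 to 719 CPM (median 422), in CAST/EiJ from 74.0 to 192 (median 135) and in WSB/EiJ from 1.23 to 125.2 (median 47.6). The C57BL/6J libraries overlapped with neither wild-derived strain. In NOD/ShiLtJ it ran from 227 to 458 CPM (median 350) and in 129S1/SvImJ from 137 to 477 (median 215). The 5 A/J libraries stood at 140, 150, 210, 256 and 731 CPM, with the female hippocampus library highest, and the 5 DBA/2J libraries at 189, 218, 286, 360 and 472 CPM. In the order of mean log2(CPM + 1), which ran C57BL/6J, NOD/ShiLtJ, DBA/2J, A/J, 129S1/SvImJ, CAST/EiJ, WSB/EiJ, the single step larger than the SD of both neighbours was that from 129S1/SvImJ down to CAST/EiJ (0.88 on the log2 scale). Against C57BL/6J, H2-D1 fell by 3.10 on the log2 scale in WSB/EiJ (SE 0.41, adjusted p = 2.1e-07), which is 8.57-fold, and by 1.72 in CAST/EiJ (SE 0.39, adjusted p = 0.0073), 3.30-fold. Among the libraries titled high the CAST/EiJ difference was of like size, with a log2 change of -1.69, but missed the threshold (adjusted p = 0.119). The pericyte markers summed to 5037 to 9605 CPM in WSB/EiJ, 1998 to 2965 in CAST/EiJ and 2703 to 7297 in C57BL/6J, with all 8 markers detected in each, so that their medians were highest in WSB/EiJ (8650) and lowest in CAST/EiJ (2230) of the 7 strains. Their part in the H2-D1 difference was not tested.

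H2-K1, the other classical heavy chain, had its lowest median in NOD/ShiLtJ. It ran there from 29.0 to 90.3 CPM (median 38.0), below every C57BL/6J library (101 to 440, median 257). In CAST/EiJ it ran from 39.6 to 97.2 CPM (median 81.5), in WSB/EiJ from 25.4 to 214 (median 75.1) and in 129S1/SvImJ from 11.6 to 212 (median 70.6). The 5 A/J libraries held 21.1, 65.2, 71.4, 132 and 499 CPM and the 5 DBA/2J libraries 47.0, 80.9, 85.4, 86.9 and 511, so in both strains the only female library stood above all the males. H2-K1 fell by 2.44 on the log2 scale in NOD/ShiLtJ against C57BL/6J (SE 0.52, adjusted p = 0.0085), 5.42-fold, and the libraries titled high gave a log2 change of -2.46 with an adjusted p of 0.0584. No step in the order of strains exceeded the SD of both neighbours. Log2 changes against C57BL/6J in the strains not called were -1.57 in 129S1/SvImJ, -1.77 in CAST/EiJ and -1.47 in WSB/EiJ (adjusted p = 0.13, 0.0919 and 0.20). CAST/EiJ passed the threshold when the 1 library A/J replicate 1 or DBA/2J replicate 1 was left out, both of which are female hippocampus libraries, and under several other settings given in the closing section. With sex and region as covariates H2-K1 was called in 129S1/SvImJ, CAST/EiJ and WSB/EiJ, and H2-D1 in 129S1/SvImJ as well, a strain in which 6 of 9 libraries are female.

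The 2 classical genes did not keep the same ratio across strains. H2-D1 CPM divided by H2-K1 CPM was 1.85 ± 0.452 (SD, n = 6) in C57BL/6J, ranging from 1.51 to 2.73, and 7.79 ± 2.91 (SD, n = 6) in NOD/ShiLtJ, ranging from 3.68 to 12.15. In WSB/EiJ it was 0.589 ± 0.386 (SD, n = 6), ranging from 0.0274 to 1.11. The lowest of these comes from replicate 6, in which H2-D1 held 2 counts, under the floor of 3, and the other 5 libraries ran from 0.420 to 1.11. These 3 strains did not overlap with one another. CAST/EiJ, in which both genes were low, had a ratio of 1.80 ± 0.450 (SD, n = 6), close to that of C57BL/6J. The ratio was 4.77 ± 3.63 (SD, n = 9) in 129S1/SvImJ, 3.08 ± 2.101 (SD, n = 5) in A/J and 3.08 ± 1.497 (SD, n = 5) in DBA/2J. The sum over all 29 class I heavy chain genes of the table, 19 of which passed the filter, had its highest median in C57BL/6J at 978 CPM, followed by 756 in DBA/2J, 592 in 129S1/SvImJ, 577 in NOD/ShiLtJ, 398 in A/J, 372 in CAST/EiJ and 341 in WSB/EiJ. All CAST/EiJ libraries (272 to 513 CPM) lay below all C57BL/6J libraries (616 to 1562), whereas WSB/EiJ (200 to 866 CPM) overlapped with them. No test was made of the ratio or the sum.

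**Figure D2:**
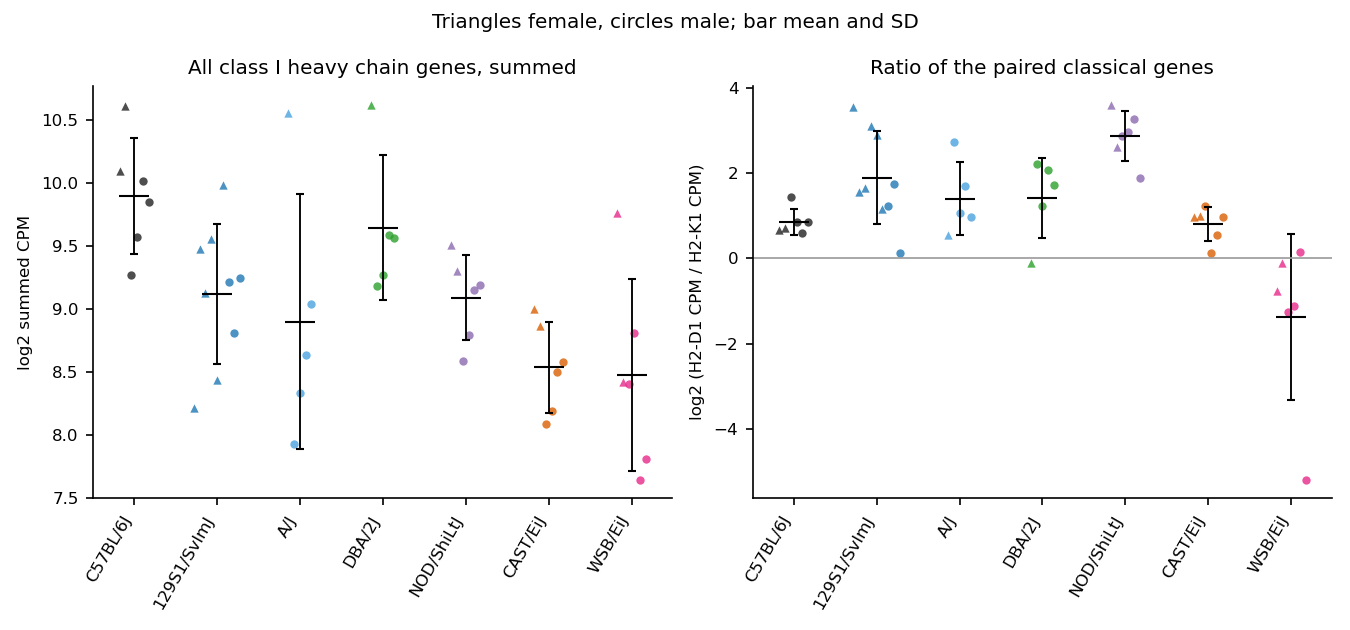
Left, log2 of the summed CPM of all class I heavy chain genes; right, log2 of the H2-D1 to H2-K1 ratio, with 0 marking equal CPM (vertical axes), in each library by strain (horizontal axes; triangles female, circles male, bars mean and SD). The ratio is above 3.6 in every NOD/ShiLtJ library and at most 1.11 in every WSB/EiJ library.

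H2-T23 encodes Qa-1, which presents leader peptides of other class I chains to the NKG2A receptor of natural killer cells. It was low in A/J, where the 5 libraries held 4.35, 5.52, 9.04, 9.48 and 9.55 CPM, and in NOD/ShiLtJ, where it ran from 5.50 to 23.6 CPM (median 12.4). C57BL/6J ran from 41.9 to 168 CPM (median 75.7), so neither strain overlapped with it. The 5 DBA/2J libraries held 28.1, 49.8, 66.0, 92.5 and 160 CPM. CAST/EiJ ran from 26.2 to 76.0 (median 56.8), 129S1/SvImJ from 18.0 to 95.5 (median 60.1) and WSB/EiJ from 4.32 to 69.0 (median 38.1). Against C57BL/6J, H2-T23 fell by 3.51 on the log2 scale in A/J (SE 0.54, adjusted p = 2.5e-05), 11.4-fold, and by 2.74 in NOD/ShiLtJ (SE 0.48, adjusted p = 4.6e-04), 6.69-fold. Both calls held under every alternative run for them. The 8 astrocyte markers summed to 2810 to 19506 CPM in A/J and to 1070 to 7195 in C57BL/6J, and their part in the difference was not tested. In the order of strains, the 1 step beyond both SDs was from WSB/EiJ down to NOD/ShiLtJ (1.38 on the log2 scale).

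The neighbouring class Ib gene H2-T24 also differed among strains (adjusted p = 7.3e-07). It averaged 139 ± 16.8 CPM in DBA/2J (SD, n = 5), 135 ± 67.4 in WSB/EiJ (SD, n = 6) and 107 ± 25.9 in 129S1/SvImJ (SD, n = 9). C57BL/6J stood at 57.5 ± 11.6 (SD, n = 6), NOD/ShiLtJ at 53.2 ± 15.9 (SD, n = 6), CAST/EiJ at 41.0 ± 12.4 (SD, n = 6) and A/J at 40.2 ± 12.8 (SD, n = 5). A/J thus had the lowest mean of both H2-T23 and H2-T24, while NOD/ShiLtJ, low in H2-T23, overlapped with C57BL/6J in H2-T24. H2-T22, which differed too (adjusted p = 1.0e-04), averaged 41.5 ± 15.6 CPM in C57BL/6J (SD, n = 6), and was low in NOD/ShiLtJ at 2.53 ± 1.70 (SD, n = 6), in A/J at 3.68 ± 2.25 (SD, n = 5) and in CAST/EiJ at 5.29 ± 3.22 (SD, n = 6). Among the libraries titled high H2-T22 had an adjusted p of 0.0547.

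Of the H2-Q genes, H2-Q4 was detected in all strains and did not pass the omnibus test. H2-Q4 ran from 60.3 to 84.4 CPM in C57BL/6J (median 72.6) and from 0.865 to 174 in WSB/EiJ (median 29.5), and the 5 DBA/2J libraries held 66.2, 69.7, 113, 124.6 and 187 CPM. Without WSB/EiJ replicate 1, its female hippocampus library at 174 CPM, H2-Q4 passed among strains (adjusted p = 0.0388). H2-Q6 was at 0 in 7 of 9 129S1/SvImJ libraries and in 5 of 6 WSB/EiJ libraries, and had counts in 5 of 5 DBA/2J libraries (4.40, 6.56, 9.42, 10.95 and 16.4 CPM). The 129S1/SvImJ counts of H2-Q6 came almost all from replicate 2, a female cortex library at 4.74 CPM, and without it the gene passed among strains (adjusted p = 4.2e-04). DESeq2 called H2-Q6 among strains with all libraries (adjusted p = 0.038), in a fit that called 7.82% of all genes tested.

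H2-Q7, which together with its neighbours encodes the Qa-2 antigen, had counts in 6 of 6 NOD/ShiLtJ libraries (1.498 to 5.01 CPM, median 2.99), in 4 of 5 DBA/2J libraries (4.57, 5.35, 11.7 and 15.7 CPM), and in 2 of 5 A/J libraries (4.39 and 20.6 CPM). In C57BL/6J 1 library, female cortex, held 190 counts (44.8 CPM), and the other 5 libraries held 0. CAST/EiJ had counts in 1 of 6 libraries (1.03 CPM), 129S1/SvImJ held 2 counts in 9 libraries and WSB/EiJ 0 counts in 6. H2-Q7 was called as lower in 129S1/SvImJ than in C57BL/6J (adjusted p = 0.0364) and not called in WSB/EiJ (adjusted p = 0.195), and no fold is given, since both strains held fewer than 3 counts in all. Both comparisons rest on that 1 C57BL/6J library: without it the 5 remaining libraries held 0 counts, and the test against 129S1/SvImJ gave an adjusted p of 0.997. The call was also lost without any 1 of DBA/2J replicates 1 and 4, A/J replicate 1, NOD/ShiLtJ replicate 2 and 129S1/SvImJ replicates 3, 4 and 5 (adjusted p from 0.0504 to 0.0694). In males alone the omnibus test of H2-Q7 gave an adjusted p of 0.407.

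B2m, the light chain that every class I heavy chain needs, lies on another chromosome than the rest and shared no window of the read length with another gene. It ran from 202 to 358 CPM in C57BL/6J (median 298.5), from 213 to 350 in NOD/ShiLtJ (median 255), from 101 to 188 in CAST/EiJ (median 141), from 90.7 to 145 in WSB/EiJ (median 104) and from 36.2 to 220 in 129S1/SvImJ (median 138). The 5 A/J libraries held 152, 170, 177, 226 and 434 CPM and the 5 DBA/2J libraries 193, 228, 232, 239 and 601. Both wild-derived strains lay below every C57BL/6J library. B2m was 2.63-fold lower in WSB/EiJ than in C57BL/6J (SE 0.31 on the log2 scale, adjusted p = 0.0083). It fell by 1.14 on the log2 scale in 129S1/SvImJ (SE 0.27, adjusted p = 0.0275), 2.21-fold. The second call was lost when any 1 of C57BL/6J replicates 1, 5 and 6 or 129S1/SvImJ replicates 1, 3, 5 and 7 was left out (adjusted p up to 0.0836), with male libraries only (0.76) and with those titled high only (0.121). CAST/EiJ had a log2 change of -1.01 against C57BL/6J (SE 0.30, adjusted p = 0.13).

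None of Tap1, Tap2 and Tapbp was called among strains or between origins. Tap1 and Tap2 form the 2 chains of the transporter. Tap1 ran from 18.8 to 53.9 CPM in C57BL/6J (median 37.4) and from 0 to 20.9 in WSB/EiJ (median 2.03). The log2 change of -2.56 (SE 0.93) in WSB/EiJ against C57BL/6J was not called by edgeR (adjusted p = 0.25). Tap1 was at 0 in 2 WSB/EiJ libraries, 1 A/J library and 1 129S1/SvImJ library, the last with a total of 27702669 counts. Tap2 ran from 32.0 to 93.5 CPM in C57BL/6J (median 64.2) and from 34.6 to 129 in WSB/EiJ (median 53.3), with a log2 change of 0.02 (SE 0.41). The ratio of Tap1 to Tap2 CPM was 0.708 ± 0.401 (SD, n = 6) in C57BL/6J, 0.139 ± 0.0487 (SD, n = 6) in CAST/EiJ and 0.124 ± 0.178 (SD, n = 6) in WSB/EiJ. It was 0.214 ± 0.165 (SD, n = 5) in A/J and 0.287 ± 0.265 (SD, n = 9) in 129S1/SvImJ. In NOD/ShiLtJ it was 0.421 ± 0.155 (SD, n = 6) and in DBA/2J 0.585 ± 0.461 (SD, n = 5). The lowest library was at 0 in A/J, 129S1/SvImJ and WSB/EiJ. No test was made of this ratio. Every CAST/EiJ library, at most 0.179, lay below every C57BL/6J library, at least 0.220. Tapbp was steady in DBA/2J (113, 121, 122, 128 and 128 CPM) and ran from 119 to 270 CPM in CAST/EiJ (median 241) and from 124 to 256 in C57BL/6J (median 211). Without WSB/EiJ replicate 1, which held 373 CPM, Tapbp passed among strains (adjusted p = 0.0086).

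Seen by strain, every call against C57BL/6J was a lower level in the other strain. Members called were H2-Q7 and B2m in 129S1/SvImJ (0.306% of all genes called), H2-T23 in A/J (0.227%), H2-D1 in CAST/EiJ (0.728%), H2-K1 and H2-T23 in NOD/ShiLtJ (0.213%), H2-D1 and B2m in WSB/EiJ (0.793%), and none in DBA/2J (0.175%). In DBA/2J the edgeR test gave 1 member, Tapbp, an unadjusted p under 0.05 (log2 change -0.66, SE 0.32), against 1211 of all 29120 genes. The 6 contrasts share the C57BL/6J libraries. All genes called in the same contrasts went both ways, with more higher than lower in every strain except CAST/EiJ. Of these genes 55 were higher and 34 lower in 129S1/SvImJ, 47 and 19 in A/J, 101 and 111 in CAST/EiJ, 37 and 14 in DBA/2J, 39 and 23 in NOD/ShiLtJ, and 122 and 109 in WSB/EiJ.

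**Figure D3:**
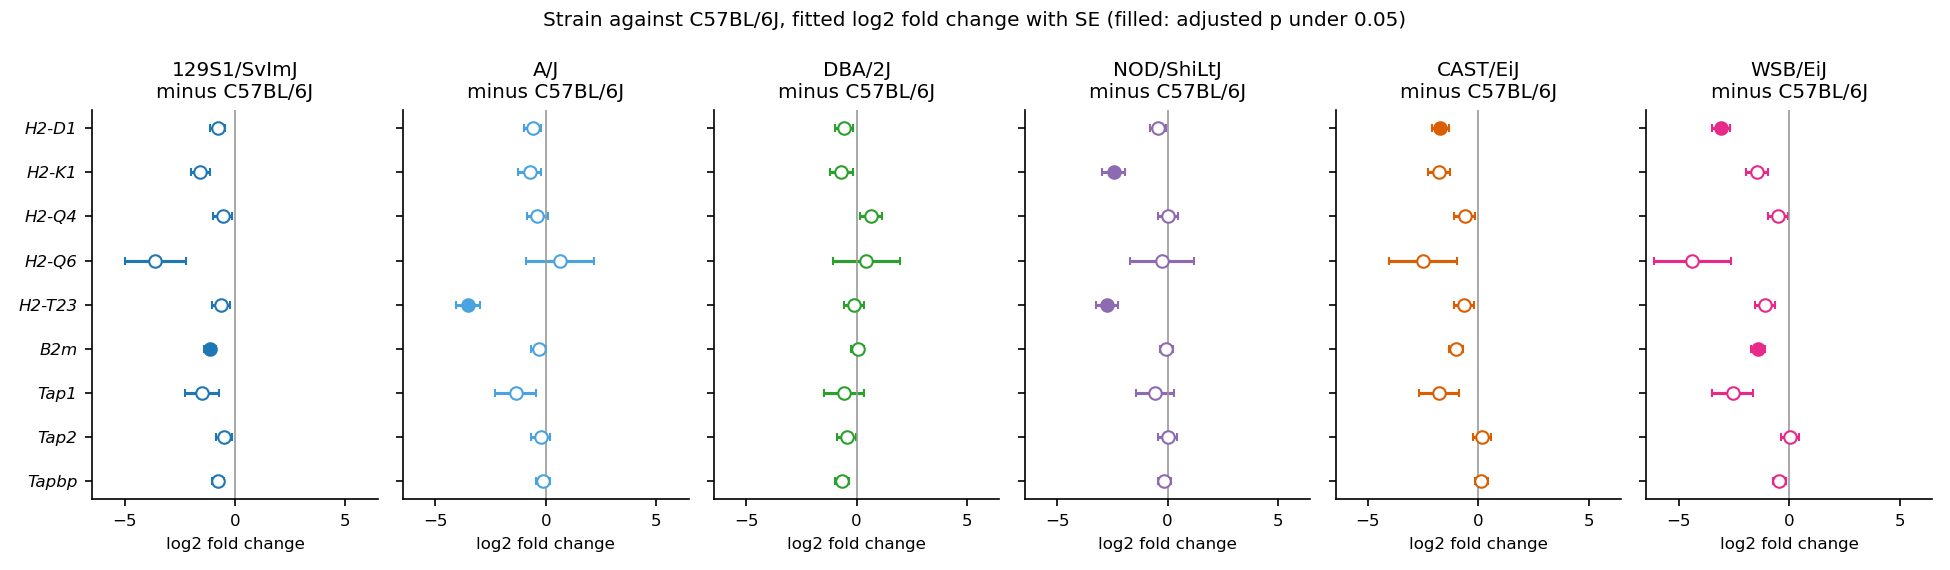
Fitted log2 fold change against C57BL/6J with its SE (horizontal axes) for 9 class I presentation genes (vertical axis) in 6 strains; filled points have an adjusted p under 0.05, and H2-Q7, whose C57BL/6J level rests on 1 library, is left out. Filled points lie left of 0 throughout, at -3.10 for H2-D1 in WSB/EiJ and -3.51 for H2-T23 in A/J.

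The study contrasted recently wild-derived with long-inbred strains, and 2 members differed in that contrast, both lower in the wild-derived strains. H2-D1 averaged 94.1 ± 61.7 CPM in wild-derived (SD, n = 12 libraries) and 325 ± 154 in long-inbred strains (SD, n = 31), and fell by 1.78 on the log2 scale (SE 0.28, adjusted p = 1.6e-05), 3.44-fold. B2m averaged 128 ± 35.1 CPM (SD, n = 12) and 234 ± 114 (SD, n = 31), and fell by 0.88 (SE 0.22, adjusted p = 0.0231), 1.83-fold. Of all genes 0.749% were called, and of those with a mean of at least 5 CPM, 1.52%. The median log2 change was -0.78 over the 10 members and -0.38 over all genes. H2-T23, low in 2 of the 5 long-inbred strains, averaged 47.3 ± 22.3 CPM (SD, n = 12) and 49.4 ± 44.7 (SD, n = 31). Tap2 and Tapbp had log2 changes of 0.34 (SE 0.24) and 0.22 (SE 0.19), and Tap1 one of -1.37 (SE 0.56, adjusted p = 0.476).

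Libraries of 1 strain share a genotype, so the contrast of origins holds 2 strains against 5. With counts summed per strain, no member was called and H2-D1 kept a log2 change of -1.82 (adjusted p = 0.214), in a fit that called 7 genes in all. H2-D1 passed with each strain left out in turn. B2m missed the threshold without C57BL/6J (adjusted p = 0.0818), CAST/EiJ (0.0619), NOD/ShiLtJ (0.0822) or WSB/EiJ (0.536), and without the 1 library CAST/EiJ replicate 3 or WSB/EiJ replicate 3 (0.0507 for either). Without 129S1/SvImJ, H2-Q6 and H2-Q7 passed as well, as lower in wild-derived strains (adjusted p = 0.0351 and 0.0307). In cortex alone and in hippocampus alone, H2-D1 passed and B2m did not (adjusted p = 0.814 and 0.0692).

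Cortex and hippocampus were compared next, and 0 of 10 members differed, with 0.0755% of all genes called. By edgeR no member had an unadjusted p under 0.05, against 1631 of all genes, and DESeq2 called none. The largest log2 change of a member other than H2-Q6 was that of H2-K1, 0.49 (SE 0.31). H2-Q6 averaged 5.62 ± 9.54 CPM over 22 hippocampus and 3.38 ± 4.98 over 21 cortex libraries (mean ± SD). Its highest hippocampus library was A/J replicate 1 at 43.3 CPM. Within 18 matched pairs of strain, sex and title word, H2-D1 was higher in hippocampus in 9 and lower in 9, B2m higher in 10 and lower in 8, and Tapbp higher in 6 and lower in 12. Tap2 was higher in 7 and lower in 11, with the median difference furthest from 0 (-0.33 of log2(CPM + 1)). Nor did the effect of origin differ between the regions for any member in an interaction test, which called 0% of all genes. By edgeR 675 genes but no member had an unadjusted p under 0.05 there, and DESeq2 was not run on it.

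Between the sexes, 0 of 10 members were called without covariates, against 2.85% of all genes, and DESeq2 called none of them either. The classical heavy chains came nearest: H2-K1 averaged 177 ± 173 CPM over 16 female libraries and 91.1 ± 63.8 over 27 male libraries (mean ± SD), with a log2 change of 0.95 (SE 0.29, adjusted p = 0.0532), and H2-D1 349.5 ± 207 and 208 ± 119.6 over the same libraries, with one of 0.75 (SE 0.26, adjusted p = 0.128). These were the 2 members with an unadjusted p under 0.05, against 3818 of all 29120 genes. The median log2 change of all genes was -0.12. With strain and region as covariates both were called as higher in females, H2-D1 by 0.92 on the log2 scale (adjusted p = 2.5e-05) and H2-K1 by 0.82 (adjusted p = 0.0161), in a fit that called 2.54% of all genes and could not be fitted for H2-Q7. Within the 12 matched pairs of strain and region among libraries titled high, H2-D1 was higher in females in 12 (median difference 0.50 of log2(CPM + 1)), H2-K1 in 8 and B2m in 4. The H2-D1 differences ran from 0.03 to 5.83, the largest against WSB/EiJ replicate 6, which held 2 counts. These pair counts were not made for all genes. The rRNA-like share did not overlap between the sexes, and the median total was 21242058 counts in female and 5257353 in male libraries, so that sex and these features of the libraries cannot be told apart.

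The title words high and low were compared within the 27 male libraries, 14 high and 13 low, because 15 of 16 female libraries are titled high. None of the 10 members was called by edgeR, against 1.06% of all genes. Unadjusted p fell under 0.05 for 3 of them, Tapbp (log2 change 0.49, SE 0.17, adjusted p = 0.185), B2m (0.44, SE 0.19, adjusted p = 0.445) and H2-T23 (0.74, SE 0.36, adjusted p = 0.596). Of all 27529 genes in that fit, 2233 had an unadjusted p under 0.05. DESeq2 called Tapbp, in a fit that tested 8 of the 10 members and called 640 of 6972 genes (9.18%). With strain and region as covariates edgeR called B2m, in a fit that called 560 of 24452 genes (2.29%). In 13 matched pairs of strain and region, libraries titled high had the larger value for B2m in 12, Tapbp in 12, H2-T23 in 11 and Tap2 in 11. Median differences of these 4 were 0.40, 0.49, 0.78 and 0.28 of log2(CPM + 1). For the other members the larger value was in high for H2-D1 and H2-K1 in 10, H2-Q4 and Tap1 in 9, H2-Q6 in 6 and H2-Q7 in 4. Such counts were not made for all genes. The rRNA-like share ran from 12.99% to 24.2% in the male libraries titled high and from 12.97% to 29.3% in those titled low.

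**Figure D4:**
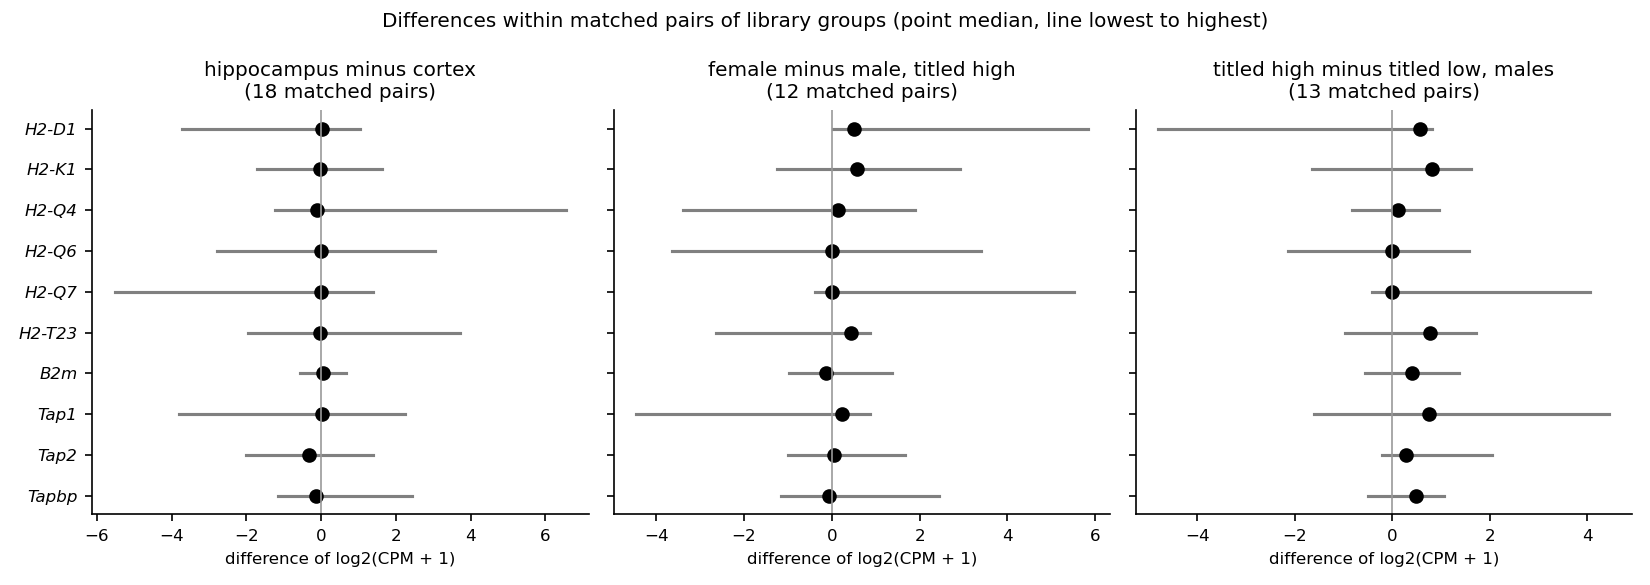
Differences of log2(CPM + 1) (horizontal axes) of the 10 class I presentation genes (vertical axis) within matched pairs of library groups, as the median (point) and the lowest to the highest pair (line). All 12 female minus male pairs lie above 0 for H2-D1, the lowest at 0.03, and medians between the regions run from -0.33 for Tap2 to 0.06 for B2m.

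Genes of the same pathway were read from lists chosen with the results above known, and counts are given beside the 2.68% of all genes called among strains. An unadjusted p under 0.05 among strains was found for 3107 of all 29120 genes. Of 23 other class I heavy chain genes, 13 passed the filter and 2 differed among strains, H2-T22 and H2-T24. Of 11 genes for peptide supply and loading, including the immunoproteasome subunits Psmb8, Psmb9 and Psmb10 and the chaperones Calr, Canx and Pdia3, 0 differed by edgeR, and 3 had an unadjusted p under 0.05. Of 17 regulators 2 differed by edgeR. Nlrc5, the transactivator of class I genes, had an adjusted p among strains of 0.0019, and of 0.23 in males alone. It ran from 0 to 82.0 CPM in C57BL/6J (median 7.64), with 3 of 6 libraries at 0, and from 0 to 72.4 in WSB/EiJ (median 6.26). In CAST/EiJ it ran from 0 to 5.37 CPM (median 0.0198), with 3 of 6 libraries at 0, and in 129S1/SvImJ from 0 to 1.20 (median 0). Medians were 11.8 CPM in DBA/2J, 5.93 in A/J and 5.10 in NOD/ShiLtJ. Irf7, an interferon-induced transcription factor, had an edgeR adjusted p among strains of 1.6e-04. It averaged 61.4 ± 22.3 CPM in C57BL/6J (SD, n = 6), 59.05 ± 32.1 in DBA/2J (SD, n = 5) and 48.0 ± 30.1 in WSB/EiJ (SD, n = 6). Means were 42.4 ± 14.5 in NOD/ShiLtJ (SD, n = 6), 37.2 ± 16.7 in A/J (SD, n = 5) and 23.9 ± 13.7 in 129S1/SvImJ (SD, n = 9). CAST/EiJ was lowest at 6.12 ± 6.23 (SD, n = 6).

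Of 4 other partners of B2m, 1 differed: Fcgrt, the neonatal Fc receptor that carries IgG across EC, averaged 320 ± 45.2 CPM in NOD/ShiLtJ (SD, n = 6), 303 ± 70.8 in CAST/EiJ (SD, n = 6) and 145 ± 31.8 in DBA/2J (SD, n = 5; adjusted p among strains 0.0029). In CAST/EiJ, Fcgrt did not overlap with DBA/2J, whereas B2m was lower in every CAST/EiJ library than in every DBA/2J library. None of the 7 class II genes differed by edgeR, and 1 had an unadjusted p under 0.05. Of 12 genes that lie among the class I genes but do not encode class I, 2 differed: Rps18 (adjusted p = 0.0344) and Abcf1 (adjusted p = 0.0383), and leaving out 1 library at a time took them up to 0.0641 and 0.159. Rps18 was low in WSB/EiJ at 26.4 ± 27.5 CPM (SD, n = 6) against 83.2 ± 20.1 in C57BL/6J (SD, n = 6), and Abcf1 was not, at 246 ± 191 (SD, n = 6) against 152 ± 109 (SD, n = 6). Between wild-derived and long-inbred strains edgeR called no gene of these 6 lists. An unadjusted p under 0.05 was found for 3 of the 12 neighbours, 2 of the 17 regulators and 1 of the 11 genes for peptide supply and loading. It was found for 0 of the other heavy chains, B2m partners and class II genes. Of all 29120 genes, 2041 had an unadjusted p under 0.05 in that contrast.

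The members' patterns over the 43 libraries were compared by Pearson's r of log2(CPM + 1), as a description, since libraries of 1 strain and their depth are shared by all genes. Tap2 and Tapbp were the most alike pair (r = 0.65), and after each strain's mean was taken away they remained so (r = 0.69). H2-K1 and B2m had an r of 0.54, and 0.67 within strains. H2-D1 and H2-K1 reached 0.59 within strains. Among 10648 other genes with a mean of at least 5 CPM, the 3 most like H2-D1 were Ly6c1 (r = 0.81), Rpl36 (0.80) and Atp9b (0.79), the 3 most like H2-K1 were the efflux pump gene Abcb1a (0.65), the organic anion transporter gene Slco1a4 (0.64) and Dnm2 (0.64), and the 3 most like B2m were Slfn3 (0.81), Gm4070 (0.72) and Tm4sf1 (0.69).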

How the data were processed

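The authors sorted EC from cortex and hippocampus, prepared stranded libraries after ribosomal depletion, and sequenced single ends. Per the submitters' processing notes and the study's methods, reads were aligned to mm10 with HISAT2 2.1.0, handled with SAMtools 1.9 and counted with featureCounts of Subread 1.4.4. The authors deposited raw counts for 54532 genes in 43 libraries. The setting for reads that align to several places is not given in the sources used here. The members, gene lists, marker lists and tests were chosen with earlier results of these data known.

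Kept were the 29120 genes that reached 0.5 CPM in any 1 library (27529 in the 27 male libraries alone). Counts were normalised by TMM and tested with the quasi-likelihood F test of edgeR 4.0.16 in R 4.3.3 (trended dispersion, adjusted deviances, two-sided, no covariates), with Benjamini-Hochberg adjustment over all genes kept and a threshold of 0.05. Named genes are the 10 members, list genes called among strains or between origins, at most 6 a list, and the 3 genes most like H2-D1, H2-K1 and B2m, with H2-T22 and H2-T24 among the list genes. CPM used library totals scaled by TMM, and log2 values a pseudocount of 1. From fits with covariates, a gene was dropped where its largest fitted count was over 5 times its largest observed one. Totals ranged from 1626534 to 49372356 counts, so low genes are read against a floor of 3 counts, which covers counting error only. Alternatives were DESeq2 1.42.0, DESeq2 size factors, other filters, edgeR's legacy deviances, covariates, subsets and leaving out each library or strain. The fits were tested on simulated data. Windows of the read length were searched in 141767 GENCODE transcripts, and promoters came from RefSeq.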

Additional observations from a re-analysis of the deposited data

Results flagged for a closer look

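Of 69 sets of 1 gene in 1 strain, 10 held a library that stood apart from the rest of its strain by Dixon's test. For normally distributed values chance flags about 1 in 20, or 3.45. Where all other libraries of a strain held 0, any library with counts was flagged, so 10 against 3.45 does not measure an excess. The values that follow are CPM of single libraries.

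The lowest values that stood apart were H2-D1 in WSB/EiJ replicate 6, a male hippocampus library, at 1.226 (the others 28.21 to 125.2), H2-T23 in WSB/EiJ replicate 2, female cortex, at 4.323 (31.84 to 68.95), and Tap1 in CAST/EiJ replicate 3, male hippocampus, at 1.246 (8.958 to 17.18). Without WSB/EiJ replicate 6, H2-D1 was still called against C57BL/6J.

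The highest values that stood apart came from DBA/2J replicate 1, the only female DBA/2J library, in both H2-K1 at 510.7 (the others 46.98 to 86.87) and B2m at 601.4 (192.7 to 239.2). That library also had the largest total of all, 49372356 counts.

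Single libraries also held nearly all the counts of H2-Q6 and H2-Q7 in several strains. H2-Q6 stood at 4.742 in 129S1/SvImJ replicate 2 and at 1.609 in WSB/EiJ replicate 3. H2-Q7 stood at 44.76 in C57BL/6J replicate 2, at 1.031 in CAST/EiJ replicate 1 and at 0.03824, which is 2 counts, in 129S1/SvImJ replicate 2. The H2-Q6 and H2-Q7 values of 129S1/SvImJ come from the same female cortex library.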

How the results depend on the processing

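No paired analysis was possible because only some 129S1/SvImJ titles carry a number, so no 2 strains share one, and no title names the mouse. The matched pairs in the text are groups of libraries alike in labels, given without a test. Counts of members called are given below as the main count and then the count under the alternative. Percentages in brackets are the share of all genes called in the same fit. Against C57BL/6J, 129S1/SvImJ went from 2 (0.306%) to 0 in males only (0.0763%) and to 1 in libraries titled high (0.209%). It went to 1 with the rRNA-like share as a covariate (0.362%), where H2-Q7 was dropped from the fit. With no filter (0.33%) or legacy deviances (1.08%) it went to 3, with H2-K1 added. With sex and region as covariates (0.39%) it also went to 3 (H2-D1 and H2-K1 added), with H2-Q7 again dropped from the fit. CAST/EiJ went from 1 (0.728%) to 2 with DESeq2 size factors (0.742%), with no filter (0.695%), with sex and region as covariates (0.968%) and in males only (0.552%). It went to 3 with legacy deviances (0.934%) and to 0 in libraries titled high (0.472%). NOD/ShiLtJ went from 2 (0.213%) to 1 in libraries titled high (0.151%). WSB/EiJ went from 2 (0.793%) to 4 with legacy deviances (1.3%) and to 3 with sex and region as covariates (1.09%), with H2-K1 added. Between origins the count went from 2 (0.749%) to 4 with legacy deviances (23%) or without 129S1/SvImJ (0.804%). It went to 1 without C57BL/6J (0.736%), CAST/EiJ (0.895%), NOD/ShiLtJ (0.685%) or WSB/EiJ (0.98%). It was also 1 in cortex alone (0.166%) and in hippocampus alone (0.267%), and 0 with counts summed per strain (0.0317%). Between the sexes it went from 0 (2.85%) to 1 with no filter (2.36%) and to 2 with legacy deviances (36%) or with strain and region as covariates (2.54%). Between title words it went from 0 (1.06%) to 2 with legacy deviances (30.2%) and to 1 with DESeq2 (9.18%) or with strain and region as covariates (2.29%). Leaving out 1 library at a time gave counts of 5 to 7 among strains, 0 to 3 in 129S1/SvImJ, 1 to 2 in CAST/EiJ and 1 to 2 between origins. The causes were not tested.

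The log2 change of H2-T23 between origins, -0.06, changed sign to 0.01 with sex and region as covariates or counts summed per strain, 0.06 in males, 0.26 with the rRNA-like share, and 0.02, 0.21, 0.11 and 0.13 without 129S1/SvImJ, C57BL/6J, DBA/2J and WSB/EiJ, and ran from -0.14 to 0.06 over single libraries left out. That of Tapbp, 0.22, became -0.13 in males and -0.11 without CAST/EiJ. That of H2-Q7 in 129S1/SvImJ, a fitted -8.92 that is no bound, was 0.00 in males and ran from -9.49 to 0.73.

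Over all genes, legacy deviances called 13525 among strains against 781, 6712 between origins against 218, 10473 between the sexes against 830, 8023 between regions against 22 and 8327 between title words against 293. DESeq2 called 1314, 395, 1000, 55 and 640. Low counts of H2-Q6, H2-Q7 and Tap1 in WSB/EiJ are read beside the library totals, which ran there from 1626534 to 5331064. Tap1 also held 0 counts in 129S1/SvImJ replicate 1, with a total of 27702669. The part of depth in these low counts was not tested.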
